A study of Mus musculus with 6 samples.

Results

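Serotonin receptors were followed in the ribosome-associated RNA of mPFC D2 neurons, with and without knockout of Gsk3b. The members are the 10 genes Htr1a, Htr1b, Htr1d, Htr1f, Htr2a, Htr2c, Htr3a, Htr4, Htr5a and Htr7, taken by gene name from a table of 47729 genes and 115220 transcripts, in which they have 25 transcripts. They were chosen by name, with earlier results of these data known. The 6 libraries came from adult C57BL/6 male mice that carried a D2Cre bacterial artificial chromosome transgene, Rosa26-LSL-Flag-Cas9 and RiboTag, so that Cas9 and the hemagglutinin-tagged Rpl22 ribosomal subunit were made in cells with a history of D2Cre expression in both groups. The 3 Ctrl libraries came from mice injected in the mPFC with AAV GFP, which carries no guide. The 3 Gsk3sKO in mPFC D2 libraries came from mice given AAV Gsk3sgRNA/GFP, and tissue was taken 3 weeks later. Tagged D2 cells that the virus did not infect keep intact Gsk3b and also contribute ribosomes. Neither the labels nor the text read here say whether the libraries are separate mice or pools, so the p-values measure only how far these libraries spread, and that spread may be technical.

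The values are FPKM, fragment numbers scaled for transcript length and library size, so levels can be compared between genes. Gene totals are sums over a gene's transcripts. The table holds no counts, and the step between low FPKM placed the depth of the libraries at about 23.5 M (Ctrl replicate 3) to 45.1 M (Ctrl replicate 1) reads. Gsk3b was the targeted gene. Its transcript ENSMUST00000023507 gave 33.5, 34.7 and 36.2 FPKM in Ctrl against 24.8, 21.6 and 21.2 FPKM in Gsk3sKO. The limma test described below gave it an unadjusted p of 0.00448 and an adjusted p of 0.619. The Gsk3b gene totals overlapped, at 35.6, 53.8 and 56.5 FPKM in Ctrl and 36.9, 37 and 33.6 FPKM in Gsk3sKO (limma unadjusted p = 0.0648). That overlap rests on Ctrl replicate 1, where the other transcript tested, ENSMUST00000114750, was at 1.85 FPKM, against 18.7 and 20 FPKM in the other Ctrl libraries. In Gsk3sKO this transcript was at 11.9, 15.4 and 12.5 FPKM, with a log2 fold change of 0.42 (limma unadjusted p = 0.603). These are levels of RNA and do not measure the protein. The paper reported the knockout by staining for GSK3β in D2Cre/LSL-Flag-Cas9 mice. There, most mPFC neurons with both Flag-Cas9 and the guide lacked the protein signal. Ctrl replicate 1 stood apart in the genes that mark the targeted cells. Drd2, the D2 receptor gene, was at 1.58 FPKM there and between 5.96 and 14.1 FPKM in the other 5 libraries, and Adora2a, another gene of D2 striatal neurons, was listed at 0 there. The log2 fold changes of the tested receptors are given with and without it.

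Serotonin reaches the prefrontal cortex through axons of the raphe nuclei and acts there on receptors of several families. The Htr1 and Htr5 receptors couple to Gi/o proteins and lower cAMP, Htr2 receptors couple to Gq and phospholipase C, Htr4 and Htr7 receptors couple to Gs and raise cAMP, and Htr3a encodes a subunit of a cation channel opened by serotonin. In the prefrontal cortex Htr2a is known from pyramidal neurons and is the main target of serotonergic hallucinogens, Htr1a inhibits pyramidal neurons, and Htr3a marks a class of interneurons. RNA in an immunoprecipitate is that of tagged cell bodies and near processes, so receptors on serotonergic axons that enter the mPFC are not measured by it.

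The receptor genes are paralogs, and the longest identical stretch between the coding sequences of any pair was 26 bases among 45 pairs. The runs of the Htr2 pair and of Htr1b with Htr1d come from the GENCODE M21 transcripts of GRCm38. They are shown because a read lying wholly within such a stretch could come from either gene. A read that reached past the stretch would meet bases that differ between the genes.
Htr2a and Htr2c: gcgtccatcatgcacctctgcgccat
Htr1b and Htr1d: tactgggccatcaccgatgc

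Htr2c RNA is alternatively spliced and edited in exon 5. The exon is shown as it stands in transcript ENSMUST00000036303 (Htr2c-201), chrX:147169570-147169770 on the plus strand of GRCm38, all of it coding. The capitals mark the 95 bases, chrX:147169676-147169770, that transcripts ENSMUST00000156697 (Htr2c-207) and ENSMUST00000112831 (Htr2c-203) leave out.
Htr2c-201 exon 5: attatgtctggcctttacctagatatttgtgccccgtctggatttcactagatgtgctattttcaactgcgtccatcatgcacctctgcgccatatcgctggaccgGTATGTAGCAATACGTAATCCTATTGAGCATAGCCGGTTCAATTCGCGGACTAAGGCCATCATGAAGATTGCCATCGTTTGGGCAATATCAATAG
Both transcripts without the capital bases were listed at 0 in all 6 libraries, and all Htr2c coding signal was assigned to transcripts with the whole exon. FPKM does not show RNA editing.

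The coding sequence of Htr7 has alternative ends. The ends of 2 of its 3 protein-coding transcripts, ENSMUST00000099505 and ENSMUST00000164639, on the minus strand of chromosome 19, are shown from 30 bases before the point where their coding sequences part, with the bases after that point in capitals. These ends tell the 2 variants apart, although the last capitals of ENSMUST00000099505 are the same bases as the first capitals of ENSMUST00000164639. The third, ENSMUST00000166074, has 1 base of its own after that point and is not shown.
ENSMUST00000099505: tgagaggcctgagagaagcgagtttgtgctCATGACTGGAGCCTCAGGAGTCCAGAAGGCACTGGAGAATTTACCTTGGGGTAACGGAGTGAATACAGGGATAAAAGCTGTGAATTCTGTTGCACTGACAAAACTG
ENSMUST00000164639: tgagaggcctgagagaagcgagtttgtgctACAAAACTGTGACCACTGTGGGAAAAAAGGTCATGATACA

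Htr2a, the Gq-coupled receptor, had the highest mean level of the 10 genes. It lies on chromosome 14 from 74640840 to 74709494 of GRCm38 and has 1 transcript in the table. Its gene total was 6.7, 8.95 and 7.29 FPKM in Ctrl and 8.15, 7.31 and 8.8 FPKM in Gsk3sKO. The groups overlapped, and the highest library exceeded the lowest 1.34 times, the narrowest range of the receptors. The mean of 7.87 FPKM was above those of 47.2% of all gene totals with a mean of at least 1 FPKM, so the most abundant serotonin receptor was a gene of middle level in these libraries.

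Htr1b, a Gi/o-coupled receptor known from axon terminals, was second. It lies on chromosome 9 from 81628291 to 81633828. Its gene total was 4.31, 4.98 and 6.55 FPKM in Ctrl and 6.32, 8.49 and 4.96 FPKM in Gsk3sKO. Gsk3sKO replicate 2 was highest and Ctrl replicate 1 lowest, and the groups overlapped. Htr2a was above Htr1b in 5 of 6 libraries and their ranges overlapped, so these neighbours did not differ beyond their spread. Together they made up between 51.5% and 58.4% of the summed FPKM of the 10 receptors in each library.

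The next pair were the Gi/o-coupled Htr5a and Htr1a. Htr5a, on chromosome 5 from 27842149 to 27855088, measured 2.27, 2.61 and 4.13 FPKM in the Ctrl libraries against 3.18, 3.04 and 3.34 FPKM in the Gsk3sKO libraries. Htr1a, a gene with 1 exon on chromosome 13 from 105443639 to 105448122, measured 1.66, 2.54 and 3.01 FPKM in the Ctrl libraries against 3.13, 3.44 and 2.61 FPKM in the Gsk3sKO libraries. For both genes Ctrl replicate 1 was the lowest of the 6 libraries and the groups overlapped. Every Htr1b value was above every Htr5a value, the one step in the order of levels without an overlap of ranges, whereas Htr5a and Htr1a overlapped, with Htr5a higher in 5 of 6 libraries. The ranges of all later neighbours in the order also overlapped.

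Htr2c, the second Gq-coupled receptor, was the most variable of the receptors with a mean above 2 FPKM. The gene spans 235 kb on the X chromosome, from 146962513 to 147197277. Its gene total was 2.01, 2.35 and 1.39 FPKM in Ctrl and 3, 0.676 and 3.17 FPKM in Gsk3sKO. The Gsk3sKO libraries held both the lowest and the highest values, 4.69 times apart. Htr2c is very strongly expressed in the choroid plexus. Of 7 choroid plexus markers, the defining genes Folr1 and Otx2 were listed at 0 in all 6 libraries, and Ttr was above 0 in Ctrl replicate 3 alone, at 0.626 FPKM. Kl was above 0 in 5 libraries, at up to 0.903 FPKM, Clic6 reached 0.731 FPKM, Kcnj13 was at 1.26 FPKM in Ctrl replicate 1 alone, and Aqp1 was at most 0.196 FPKM. The sum of the list lay between 0.71 and 2.17 FPKM in Ctrl and between 0.383 and 1.49 FPKM in Gsk3sKO, and the part of these cells in the Htr2c values was not tested.

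Htr3a and Htr7 lay near 1 FPKM. Htr3a, on chromosome 9 from 48899213 to 48911099, measured 0.898, 1.16 and 1.11 FPKM in the Ctrl libraries against 1.77, 1.98 and 1.06 FPKM in the Gsk3sKO libraries. Gsk3sKO replicates 1 and 2 were above every Ctrl library and replicate 3 was within the Ctrl range. Htr7, on chromosome 19 from 35958734 to 36057507, measured 0.283, 1.72 and 0.803 FPKM in the Ctrl libraries against 1.2, 0.985 and 1.84 FPKM in the Gsk3sKO libraries. Ctrl replicate 1 was again lowest and the groups overlapped.

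The 3 remaining receptors had a mean under 1 FPKM. Htr1f, a Gi/o-coupled receptor on chromosome 16 from 64924729 to 65105854, measured 0.603, 1.54 and 0.79 FPKM in the Ctrl libraries against 1.03, 0.635 and 0.145 FPKM in the Gsk3sKO libraries. Htr1d, on chromosome 4 from 136423524 to 136444398, measured 0.535, 0.178 and 0.339 FPKM in the Ctrl libraries against 0.179, 0.407 and 0 FPKM in the Gsk3sKO libraries. The Gs-coupled Htr4, on chromosome 18 from 62324204 to 62496577, measured 0, 0.268 and 0.236 FPKM in the Ctrl libraries against 0.12, 0.0929 and 0.269 FPKM in the Gsk3sKO libraries. The groups overlapped for all 3. With the estimated depths, Htr1d rested on about 0 to 70 reads and Htr4 on about 0 to 40 reads per library, against about 960 to 1887 reads for Htr2a, so differences in the lowest receptors were not detectable at this depth unless they were large. These read numbers are estimates from FPKM, transcript length and depth, and reads are not independent molecules.

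**Figure D1:**
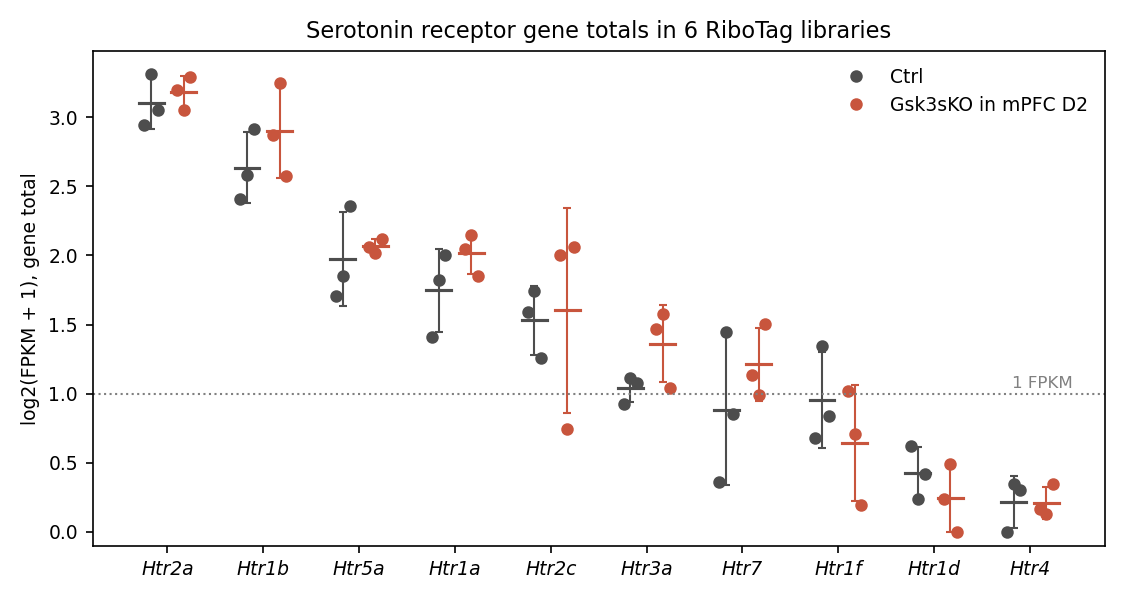
Gene totals of the 10 serotonin receptors on the log2(FPKM + 1) scale, ordered by mean level. Each point is 1 library, horizontal bars are group means and vertical bars are SD (n = 3 for each group). The points of Ctrl and Gsk3sKO overlap for every receptor, and the levels fall from Htr2a at a mean of 7.87 FPKM to Htr4 at a mean of 0.164 FPKM.

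Summed by coupling, the 5 Gi/o-coupled receptors reached 9.38, 11.8 and 14.8 FPKM in Ctrl and 13.8, 16 and 11.1 FPKM in Gsk3sKO. The 2 Gq-coupled receptors reached 8.71, 11.3 and 8.68 FPKM in Ctrl and 11.2, 7.99 and 12 FPKM in Gsk3sKO. The Gs-coupled Htr4 and Htr7 together lay between 0.283 and 2.11 FPKM. Among the 10 receptors, the Gi/o sum and the Gq sum were thus each several times that of Htr4 and Htr7 in every library. All class sums overlapped between the groups. The sum over the 10 receptors was 19.3, 26.3 and 25.6 FPKM in Ctrl and 28.1, 27.1 and 26.2 FPKM in Gsk3sKO. The low Ctrl mean of this sum rests on replicate 1, in which 7 of the 10 receptors had their lowest value.

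**Figure D2:**
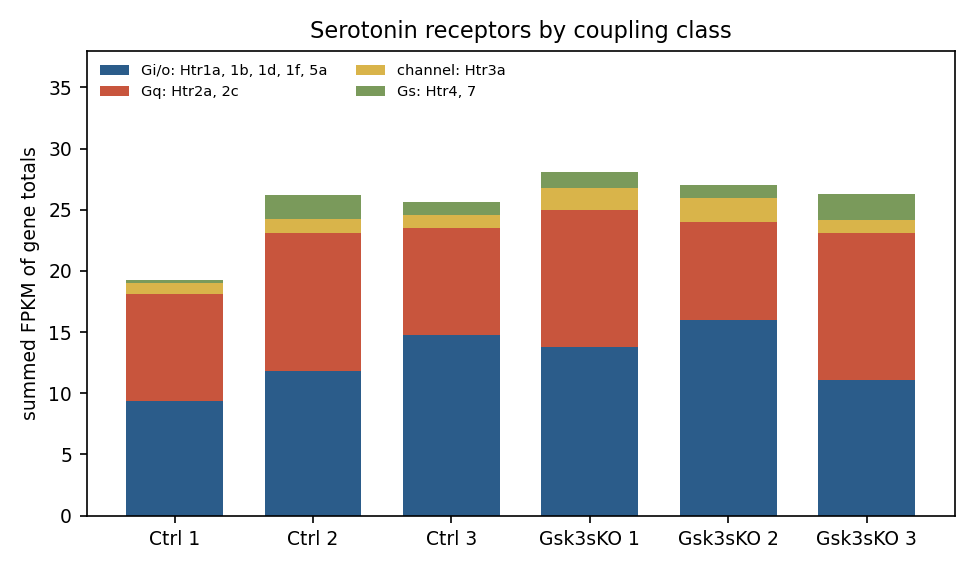
Summed FPKM of the receptor gene totals in each library, stacked by coupling class. Ctrl replicate 1 has the lowest stack, at 19.3 FPKM, and the other 5 libraries lie between 25.6 and 28.1 FPKM.

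The question of the comparison was whether loss of Gsk3b changed the receptor RNA on ribosomes. Of the 10 receptors, 7 passed the filter of a mean of at least 1 FPKM and were tested with limma in a fit over all 12874 gene totals. None of the 7 was called at an unadjusted p under 0.05, where 6.56% of all tested gene totals were called, and 0 had an adjusted p under 0.05, where 0.0466% of all tested gene totals did. The receptors' groups overlapped in 7 of 7 cases, against 12% of all tested gene totals without overlap. The limma linear model without moderation of the variances also called 0 of the 7.

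All 7 tested receptors had a positive log2 fold change, that is a higher mean in Gsk3sKO on the log2(FPKM + 1) scale, where 41.1% of all tested gene totals had one. Their median log2 fold change was 0.26, and the median of all tested gene totals was -0.0616. After median ratio scaling these medians were 0.32 and -0.00337. The count and the medians depend on the filter. Htr7, at a mean of 0.935 FPKM in Ctrl and 1.34 FPKM in Gsk3sKO, reached a mean of 1 FPKM only through Gsk3sKO. The 3 receptors below the filter had negative estimates. In the fit without a filter 7 of the 10 receptors were positive, with a median of 0.08, against -0.03 for all gene totals there. With the filter but without Ctrl replicate 1 the median was 0.10, and 5 of the 7 were positive. Drd2 was also lowest in that library, and the sum of 9 markers of dopaminoceptive striatal neurons was 141 FPKM there and 170 to 393 FPKM in the other Ctrl libraries. The part of these genes in the receptor values was not tested.

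With all 6 libraries, the largest estimates were those of the least abundant tested receptors, Htr3a and Htr7. The Ctrl mean of Htr3a was 1.06 ± 0.14 FPKM and its Gsk3sKO mean 1.6 ± 0.481 FPKM (SD, n = 3 each). This gave a log2 fold change of 0.33 with a standard error of 0.30 and a 95% interval from -0.36 to 1.01 (limma unadjusted p = 0.31, adjusted p = 0.873). Htr7 also had a log2 fold change of 0.33, with a wider interval from -0.53 to 1.19 (limma unadjusted p = 0.409). Leaving out Ctrl replicate 1 gave 0.06 for Htr7, leaving out Ctrl replicate 2 gave 0.61, and without Gsk3sKO replicate 3 the gene fell below the filter. The Htr3a estimate was 0.27 without Ctrl replicate 1. The size of the Htr7 estimate thus rests on single Ctrl libraries. On the log2(FPKM + 1) scale, a change by 1 unit thus lay within the interval for both.

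Among the Gi/o-coupled receptors, Htr1a had a log2 fold change of 0.27 with a 95% interval from -0.35 to 0.89 (limma unadjusted p = 0.344), and of 0.10 without Ctrl replicate 1. Htr1b was close to it at 0.26, with an interval from -0.32 to 0.84 (limma unadjusted p = 0.329). It was 0.15 without Ctrl replicate 1 and 0.09 without Gsk3sKO replicate 2. The estimate of Htr5a was 0.09, with an interval from -0.51 to 0.70 (limma unadjusted p = 0.736), and it was -0.04 without Ctrl replicate 1. The 3 had the same sign in the fit over all libraries and none differed by more than the spread between libraries.

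The Gq-coupled pair had the smallest estimates. The Ctrl mean of Htr2a was 7.65 ± 1.17 FPKM and its Gsk3sKO mean 8.09 ± 0.744 FPKM (SD, n = 3 each), for a log2 fold change of 0.08 with a standard error of 0.19. Its 95% interval, from -0.37 to 0.52, was the narrowest of the tested receptors (limma unadjusted p = 0.704, adjusted p = 0.955). Without Ctrl replicate 1 the estimate was -0.0029. Htr2c had a log2 fold change of 0.07, with an interval from -0.85 to 0.99 (limma unadjusted p = 0.867). Its sign turned when Ctrl replicate 3, Gsk3sKO replicate 1 or Gsk3sKO replicate 3 was left out, with values of -0.07, -0.13 and -0.16, and it was 0.10 without Ctrl replicate 1.

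The 3 receptors below the filter entered only the fit without a filter, in which 4.2% of 26696 gene totals had an unadjusted p under 0.05. Their log2 fold changes there were -0.31 for Htr1f (limma unadjusted p = 0.355), -0.18 for Htr1d (limma unadjusted p = 0.313) and -0.0044 for Htr4 (limma unadjusted p = 0.971). None was called. Fold changes of such low values are understated on the log2(FPKM + 1) scale.

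**Figure D3:**
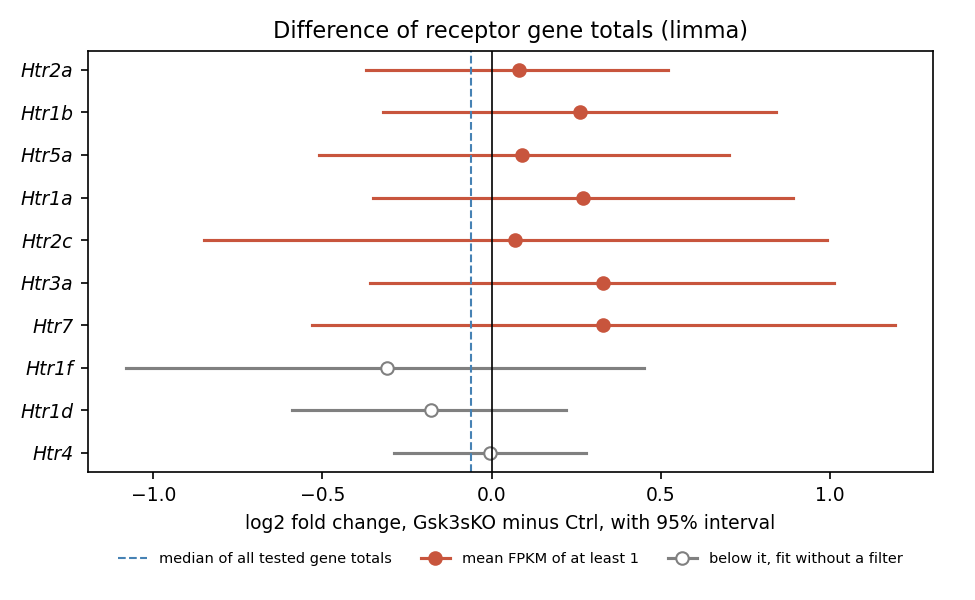
Log2 fold change of each receptor gene total, Gsk3sKO minus Ctrl, with its 95% interval from limma. Filled points are the 7 receptors with a mean of at least 1 FPKM, open points are the 3 below it from the fit without a filter, and the dashed line is the median of all tested gene totals at -0.0616. Every interval includes 0.

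At the level of transcripts, 19 of the 25 receptor transcripts were above 0 in at least 1 library and 7 were above 0 in all 6. Of the receptors, 6 have 1 transcript here, so their transcript is their gene total. With a mean of at least 1 FPKM, 6 receptor transcripts were tested, and limma called 0 of them at an unadjusted p under 0.05, where 5.56% of all tested transcripts were called. The limma linear model without moderation also called 0. Htr1b transcript ENSMUST00000183482 held between 78.4% and 98.9% of the Htr1b total and changed by an estimated 0.32 on the log2 scale, with a standard error of 0.32 (limma unadjusted p = 0.349). The shorter ENSMUST00000051005 also has 1158 coding bases and was at 0.93 FPKM in Ctrl replicate 1 and at most 0.387 FPKM in the other libraries.

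The Htr2c total was assigned to different transcripts in different libraries. Its coding transcripts ENSMUST00000036303 (Htr2c-201) and ENSMUST00000096299 (Htr2c-202) share the same 1377 coding bases and differ mainly by a noncoding exon of 134 bases before the start codon, at chrX:146986983-146987116, which Htr2c-202 includes. Htr2c-201 measured 2.01, 2.12 and 0.971 FPKM in the Ctrl libraries against 0, 0 and 1.4 FPKM in the Gsk3sKO libraries. Htr2c-202 was listed at 0 in all 3 Ctrl libraries and at 1.12, 0.676 and 0 FPKM in Gsk3sKO. Each library was therefore assigned 1 of the coding transcripts and not the other, Htr2c-201 in the Ctrl libraries and Gsk3sKO replicate 3, and Htr2c-202 in Gsk3sKO replicates 1 and 2.

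The share of the Htr2c total in Htr2c-201 was 100%, 89.9% and 69.7% in Ctrl and 0%, 0% and 44.2% in Gsk3sKO. The mean share fell by 71.8 percentage points, from 86.5% ± 15.4 (SD, n = 3) to 14.7% ± 25.5 (SD, n = 3). The groups did not overlap (p = 0.1 in a 2-sided exact permutation test, which cannot give less with 3 libraries against 3). Such a separation was found for 10.3% of 8748 genes with at least 2 transcripts above 0, and it held for 1 of the 3 receptors whose shares were tested. In limma the estimate for Htr2c-201 was -0.98 on the log2 scale (standard error 0.54, 95% interval from -2.28 to 0.31, unadjusted p = 0.114, adjusted p = 0.857). Without Gsk3sKO replicate 3, where alone in Gsk3sKO this transcript was above 0, the estimate was -1.40 (limma unadjusted p = 0.0376, adjusted p = 0.925). Without Ctrl replicate 1 or 2 the transcript fell below the filter. Htr2c-201 reached a mean of 1 FPKM only through Ctrl, at means of 1.7 FPKM in Ctrl and 0.467 FPKM in Gsk3sKO. Htr2c-202, at a Gsk3sKO mean of 0.599 FPKM, was below the filter, so only Htr2c-201 could be called. Without a filter the estimates were -0.98 for Htr2c-201 (limma unadjusted p = 0.0885) and 0.61 for Htr2c-202 (limma unadjusted p = 0.105).

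The coding transcripts of Htr2c together measured 2.01, 2.12 and 0.971 FPKM in the Ctrl libraries against 1.12, 0.676 and 1.4 FPKM in the Gsk3sKO libraries. The groups overlapped. The rest of the total was noncoding. The processed transcript ENSMUST00000134368 (Htr2c-205), which covers the first exons and ends after the third, measured 0, 0.000119 and 0.208 FPKM in the Ctrl libraries against 1.68, 0 and 0.964 FPKM in the Gsk3sKO libraries. Noncoding transcripts thus made up 62.6% and 55.8% of the Htr2c total in Gsk3sKO replicates 1 and 3, 0% in Gsk3sKO replicate 2, and at most 30.3% in Ctrl. These were the libraries with the highest Htr2c totals. The division of reads between transcripts with shared exons is an estimate of the assembler, and its part in these shares was not tested.

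**Figure D4:**
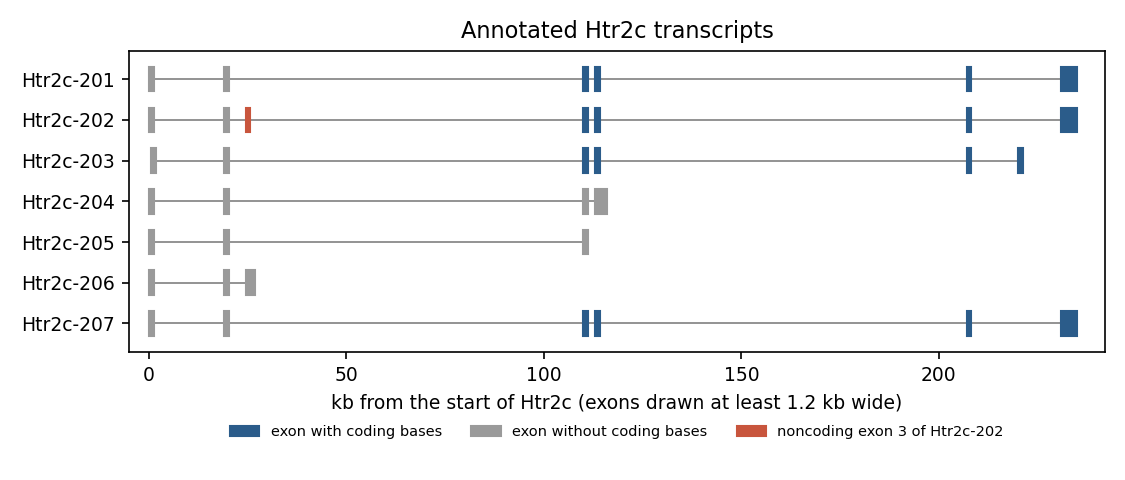
The 7 annotated Htr2c transcripts, drawn as distance in kb from the start of the gene. Boxes are exons, blue where they hold coding bases, and the red box is the noncoding exon of Htr2c-202 that Htr2c-201 lacks.

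**Figure D5:**
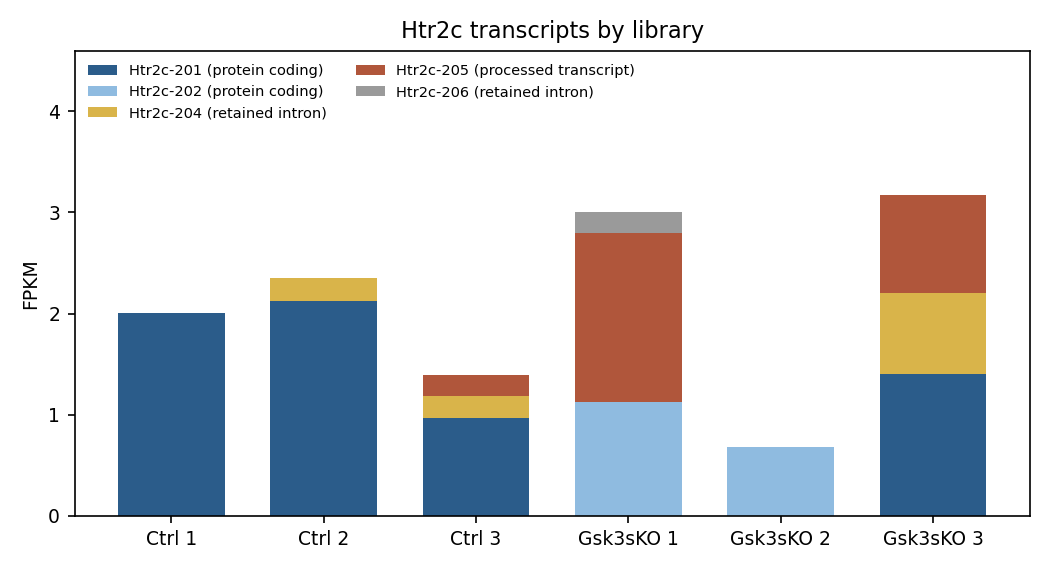
FPKM of the 5 Htr2c transcripts above 0, stacked by library. Htr2c-201 is the coding transcript in the 3 Ctrl libraries and in Gsk3sKO replicate 3, and Htr2c-202 is the coding transcript in Gsk3sKO replicates 1 and 2.

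Htr7 was spread over more transcripts than its level could resolve. ENSMUST00000164639, whose end is shown above, was at 0.461 FPKM in Ctrl replicate 2 and at 1.84 FPKM in Gsk3sKO replicate 3, and was listed at 0 in the other 4 libraries. ENSMUST00000099505 was above 0 in Ctrl replicate 2 alone, at 0.214 FPKM, and ENSMUST00000166074 in Gsk3sKO replicate 2 alone, at 0.136 FPKM. The nonsense-mediated decay transcripts ENSMUST00000164781 and ENSMUST00000165215 were listed in 3 and 2 libraries. Transcripts annotated as noncoding or as targets of decay held 100% of the Htr7 total in 3 libraries and 0% in Gsk3sKO replicate 3, and the share of ENSMUST00000164639, its highest transcript, did not separate the groups (2-sided exact permutation test, p = 1, with 0.1 the smallest p possible).

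Annotated genes that overlap a receptor gene were listed after the values had been seen. There were 10 of them, at 3 receptor genes. Of these, 9 had values here, and the 7 miRNA genes inside Htr2c were listed at 0 in all libraries. Snora35, an H/ACA small nucleolar RNA on the same strand in an intron of Htr2c, chrX:146994381-146994508, was at 1.35, 0.946 and 1.33 FPKM in Ctrl and was listed at 0 in all 3 Gsk3sKO libraries. Every Gsk3sKO value was below every Ctrl value, as for 6.02% of gene totals above 0 in any library. Snora35 was below the filter, and in the fit without a filter the unadjusted limma p was 0.000212 and the adjusted p 0.467. Snora35 is far shorter than the receptor transcripts, so the same FPKM rests on far fewer reads. Its read numbers were not estimated here, and a value of 0 may only mean that no read was caught. The Htr2c gene totals of the groups overlapped. D430036J16Rik, an antisense gene on chromosome 9 from 81631551 to 81645156 that overlaps Htr1b, measured 4.9, 3.8 and 2.1 FPKM in the Ctrl libraries against 3.03, 0.679 and 1.09 FPKM in the Gsk3sKO libraries. The estimate of -0.88 on the log2 scale, with a standard error of 0.41 (limma unadjusted p = 0.0614), was opposite in sign to that of Htr1b. The library kit marks strand, but whether strand was used in the quantification is not given in the sources used here, so reads in the overlap cannot be assigned with certainty.

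Other genes of serotonin signalling came from lists chosen with earlier results of these data known. Of 39 genes in 3 lists, 27 were tested and 0 were called at an unadjusted p under 0.05 in limma, against 6.56% of all tested gene totals, with 12 of the 27 log2 fold changes positive and a median of -0.06. The other serotonin receptor genes Htr2b, Htr3b, Htr5b and Htr6 were below the filter, and Htr6, the highest of them, was at most 1.51 FPKM. The serotonin transporter gene Slc6a4 and the vesicular transporter gene Slc18a2 were listed at 0 in all 6 libraries, and Tph2, the rate-limiting enzyme of serotonin synthesis in neurons, was at most 0.409 FPKM, so RNA of serotonergic neurons was at or near 0. Maoa, which breaks serotonin down, measured 5.91, 8.4 and 8.13 FPKM in the Ctrl libraries against 5.96, 7.16 and 8.24 FPKM in the Gsk3sKO libraries, with a log2 fold change of -0.06 (limma unadjusted p = 0.794). Ddc, an enzyme of serotonin and dopamine synthesis, was below the filter. It was at 0.357, 1.01 and 1.14 FPKM in Ctrl and listed at 0 in all 3 Gsk3sKO libraries, and it is named because of these values (limma without a filter, unadjusted p = 0.00472, adjusted p = 0.798).

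The partners and effectors of the receptors were abundant beside them. In this list 25 of 27 genes were tested, and its highest member was Gnas, the Gs alpha subunit gene, at a mean of 227 FPKM, with a log2 fold change of 0.02 (limma unadjusted p = 0.923). The sum of the list lay between 1321 and 1463 FPKM in Ctrl and between 1319 and 1537 FPKM in Gsk3sKO. The level of the receptors was therefore a small part of that of their signalling partners in both groups.

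RNA of several cell classes was present beside that of the receptors. All 14 interneuron markers and all 11 pyramidal neuron markers passed the filter, with Sst at a mean of 758 FPKM and Camk2a at a mean of 567 FPKM as the highest of each list. The interneuron sum lay between 1658 and 2130 FPKM in Ctrl and between 1567 and 1666 FPKM in Gsk3sKO, and 0 of its 14 genes were called. Of the pyramidal markers 2 were called at an unadjusted limma p under 0.05, Tbr1 (log2 fold change -0.40, limma adjusted p = 0.726) and Cux2 (log2 fold change -0.43, limma adjusted p = 0.688), both lower in Gsk3sKO, as were 5.2% of all tested gene totals. Of 6 oligodendrocyte markers, Mog, Mag and Cnp were lower at an unadjusted limma p under 0.05, of 6 microglia markers 5 were tested and C1qa was lower, and 0 of 6 astrocyte and 0 of 6 endothelial markers were called. The astrocyte sum was 82 to 104 FPKM in Ctrl and 82.4 to 102 FPKM in Gsk3sKO, and the endothelial sum was 17.2 to 69 FPKM and 23.1 to 62.5 FPKM. In these bulk samples fewer cells of a type and less RNA per cell cannot be told apart, and the part of these cells in the receptor values was not tested.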

How the data were processed

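RNA bound to tagged ribosomes was measured in 3 Ctrl and 3 Gsk3sKO libraries, grouped by the submitters' labels. An FPKM per transcript and library was deposited by the authors, and the submitters' processing notes list HISAT2 2.1.0, SAMtools 1.9, StringTie 1.3.4d and the GRCm38 build, without settings. The table also holds the authors' fold, p-value and q-value of their own comparison, which were not used, and 0 further columns per library were left out. Dividing reads between overlapping transcripts is an estimate, so transcript values are less certain than gene totals.

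FPKM were summed by gene. Differences were tested 2-sided with limma 3.58.1 in R 4.3.3 (eBayes with a trend) on log2(FPKM + 1), over all features with a mean of at least 1 FPKM, with Benjamini-Hochberg adjustment over all features tested. Calls were made at an unadjusted p under 0.05. Transcript shares were compared with exact permutation tests. Gene models, coordinates and sequences came from GENCODE M21 (GRCm38), and no protein sequence was used here.

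For depth, the step between low FPKM was measured in transcripts over 800 bases of genes with 1 transcript. Of these values, between 10.8% and 22.6% lay within 0.01 reads of a whole number, so the depth is approximate. Alternatives were the pseudocounts 0.1 and 0.5, no filter, a mean of at least 5 FPKM, median ratio scaling, no variance moderation, no variance trend, the replicate number as a block, and leaving out each library.

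The receptors, the lists and the rules were chosen with earlier results of these data known. Named were all 10 receptors, their transcripts with a mean of at least 1 FPKM or the highest mean of the gene, the highest and the called genes of each list, and Gsk3b. Other receptor transcripts, genes overlapping a receptor, Ddc and the cell markers Drd2, Adora2a, Ttr, Folr1, Otx2, Kl, Clic6, Kcnj13, Aqp1, Slc6a4, Slc18a2 and Tph2 were named after their values were seen. For Htr2a and Htr1b, the 3 gene totals nearest in pattern were named by the root mean square difference of centred log2(FPKM + 1). Python 3.11.15, numpy 2.4.6, pandas 2.3.3 and matplotlib 3.10.9 were used.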

Additional observations from a re-analysis of the deposited data

How the results depend on the processing

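The count of called receptor gene totals was 0 under all 14 alternatives. The count of called receptor transcripts was 0 except without Gsk3sKO replicate 3, where it was 1, Htr2c-201 (range with 1 library left out, 0 to 1). The library left out there was the only Gsk3sKO library with this transcript above 0. Without Ctrl replicate 1 or 2 this transcript fell below the filter and could not be tested. Htr2c-202, higher in Gsk3sKO, was below the filter with all 6 libraries. The count in the serotonin pathway lists was 1 without a filter on low values (Ddc) and between 0 and 1 with 1 library left out, namely Ppp1r1b without Ctrl replicate 3, Gnai3 without Gsk3sKO replicate 1 and Plcb1 without Gsk3sKO replicate 2. The median log2 fold change of the receptor gene totals was 0.08 without a filter, where all 10 receptors entered, and between 0.10 and 0.31 with 1 library left out. At a mean of at least 5 FPKM only Htr2a and Htr1b could be tested. Over 92 alternatives for single receptor gene totals, 0 passed the threshold (lowest unadjusted limma p 0.132), and 5 reversed a sign. All 5 came from leaving out 1 library, which gave ranges of -0.0029 to 0.18 for Htr2a, -0.16 to 0.50 for Htr2c and -0.04 to 0.28 for Htr5a. The other ranges with 1 library left out were 0.10 to 0.40 for Htr1a, 0.09 to 0.42 for Htr1b, 0.22 to 0.49 for Htr3a and 0.06 to 0.61 for Htr7. The pseudocount of 0.1 gave larger estimates than these ranges for Htr3a, at 0.52, and for Htr7, at 0.71. The fold changes of these 2 low receptors thus depend on the pseudocount. The share of the Htr2c-201 transcript lay between -86.5 and -64.4 percentage points from Ctrl with 1 library left out. The share difference of Htr7 was -37.9 percentage points for the transcript highest in Ctrl. The cause of these changes was not tested, apart from the number of receptors that entered without a filter.

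The replicate numbers share no stated mouse, batch or day, and the deviations of same-numbered libraries correlated at -0.0274, -0.0108 and -0.0809, so they were not treated as pairs, and no library correlated best with its own number. With the replicate block, 0 receptor gene totals and 0 receptor transcripts were called, 0 genes of the pathway lists were called, and the median log2 fold change stayed at 0.26. Levels under 1 FPKM, which rest on few reads, limit what can be said of Htr1d, Htr1f and Htr4, which the fits with a filter did not test.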

Other observations

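The balance of the 2 most abundant receptors varied within both groups. The ratio of the Htr1b to the Htr2a gene total was 0.644, 0.556 and 0.898 in Ctrl and 0.775, 1.16 and 0.564 in Gsk3sKO, so Htr1b exceeded Htr2a in 1 library, Gsk3sKO replicate 2, and the groups overlapped.

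The gene totals nearest to Htr2a in pattern over the 6 libraries were Kpna6, Slc1a3 and Srpk2, with root mean square differences of 0.0213, 0.0397 and 0.0403 on the centred log2(FPKM + 1) scale, where the median tested gene total was at 0.307. Those nearest to Htr1b were Wars, Arhgap35 and Zfp592, at 0.0626, 0.0654 and 0.0717, with a median of 0.387. The 6 libraries share depth and scaling with all genes in them, and a receptor that varies little is near other genes that vary little.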
